A study of Mus musculus with 28 samples.

Results

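Fat cell genes were followed in the large intestine of mice through the AOM/DSS model of colitis-associated cancer. The rule named 5 genes of the mature white adipocyte, ADIPOQ, FABP4, PLIN1, CFD and CIDEC, and took for each the probe set with the highest mean among those that carry its symbol in the authors' deposited table. It found 4 of the 5 names among 14123 genes tested: Adipoq, Cfd, Fabp4 and Cidec. PLIN1, which codes for the perilipin of the white fat droplet, was not analysed here. All 4 were read in RNA of colon tissue, not of isolated fat cells, at mean levels over the 28 arrays of 9.07 log2 units for Adipoq, 10.0 for Cfd, 11.4 for Fabp4 and 8.16 for Cidec.

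White fat cells store triglyceride in a single large droplet and release signals into the blood. Their identity is set by the nuclear receptor PPARG together with the C/EBP factors, which switch on droplet proteins, fatty acid carriers and secreted adipokines. The colon is bordered by mesenteric fat on its outer side, so a full-thickness piece can carry some of it. Adipoq codes for adiponectin, a hormone made almost solely by fat cells. Cfd codes for adipsin, the complement protease factor D, which cuts factor B in the alternative pathway. Fabp4 codes for a fatty acid carrier of fat cells that macrophages and capillary endothelium also make. Cidec codes for a protein that joins small lipid droplets into large ones, and it is also found in liver and intestine.

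The mice were female C57BL/6J. Untreated animals gave 6 arrays of distal and 6 arrays of proximal colon. Early animals had received 1 injection of azoxymethane (AOM, a colon carcinogen, 10 mg/kg) and, starting 96 hours later, 2 cycles of 2.5% dextran sulfate sodium (DSS, which injures the colon lining), each of 5 days with 14 days of plain water after it. They were killed on day 42 and gave 3 distal and 3 proximal arrays. Late animals had received the same AOM dose and 4 such cycles, were killed on day 120, and gave 6 distal and 4 proximal arrays. Per the labels, the late distal colon held dysplasia and intramucosal adenocarcinoma, the early group held areas of dysplasia, and the proximal colon of treated mice was not affected. The labels give no age, and they do not say which wall layers were sampled or whether attached fat was trimmed.

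Values are log2 levels after RMA, the usual summary of Affymetrix probe sets, so levels of different genes cannot be ranked against each other. A gene was called at a limma p, adjusted by Benjamini-Hochberg over the 14123 genes, under 0.05. The tissue carried the markers of its label: the mean of the 7 measured colon epithelium genes lay between 11.6 and 12.4 log2 units in every array. Hoxd13, a position gene of the distal colon, read 11.4 log2 units in untreated proximal array 1 and 3.44 log2 units in untreated distal array 3. The lowest level in the other distal arrays was 11.1 log2 units and the highest in the other proximal arrays was 7.52 log2 units, so these 2 arrays go against their region labels. In 6 arrays (untreated proximal 1, untreated distal 1, early distal 3 and late distal 2, 3 and 5) the 8 measured genes of the exocrine pancreas had a mean above 9 log2 units. The calls of the members that rest on either set of arrays are given with and without them.

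The sequences in front of the start sites are shown because these genes are compared with each other throughout, and their promoters can be set side by side. They come from RefSeq on build GRCm38.p6, whose table held 3 of the genes, Adipoq, Cfd and Cidec. It lists 2 starts for Cidec, of which the one at the outer end of the gene is shown and the other was not searched. Capitals mark matches, on either strand, to 5 motifs: AGGTCA (the half-site of nuclear receptors such as PPARG), AGGTCANAGGTCA (its direct repeat, which contains the half-site), TTGCNNAA (a C/EBP type site), CCAAT and TATAAA.
Adipoq, 250 bases before the start, chr16:23146286-23146535, plus strand: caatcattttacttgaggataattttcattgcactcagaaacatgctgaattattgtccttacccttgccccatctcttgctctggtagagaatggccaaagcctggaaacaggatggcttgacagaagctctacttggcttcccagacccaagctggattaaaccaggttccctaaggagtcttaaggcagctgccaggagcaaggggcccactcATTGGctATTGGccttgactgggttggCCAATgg
Cfd, 250 bases before the start, chr10:79890603-79890852, plus strand: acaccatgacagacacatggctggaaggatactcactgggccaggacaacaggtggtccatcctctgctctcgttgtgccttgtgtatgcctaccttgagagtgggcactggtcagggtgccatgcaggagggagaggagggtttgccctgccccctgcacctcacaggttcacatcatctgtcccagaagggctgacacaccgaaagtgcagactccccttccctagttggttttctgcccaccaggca
Cidec, 250 bases before the start, chr6:113435761-113436010, minus strand: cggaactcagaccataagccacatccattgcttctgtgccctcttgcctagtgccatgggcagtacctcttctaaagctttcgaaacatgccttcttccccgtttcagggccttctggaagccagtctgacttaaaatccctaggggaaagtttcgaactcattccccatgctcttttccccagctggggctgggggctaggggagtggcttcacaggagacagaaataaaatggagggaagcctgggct
Adipoq held CCAAT at 3 places, 7 to 3 bases before the start on the strand shown, and 34 to 30 and 27 to 23 bases before it on the other strand. In Cfd and Cidec none of the 5 motifs was found in these windows. Of 32851 RefSeq windows of this length, 33.8% held CCAAT, 14.0% held AGGTCA, 12.4% held TATAAA, 9.56% held TTGCNNAA and 0.0335% held the direct repeat. On that build Adipoq lies at chr16:23146536-23157968, Cfd at chr10:79890853-79892655, Fabp4 at chr3:10204342-10208616 and Cidec at chr6:113424634-113435760.

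The first question was how the regions of late mice, one with tumours and one without, differed in these genes. All 4 were lower in late distal than in late proximal colon, by 2.78 to 10.96 times, and for each of them every late distal array lay below every late proximal array. Adipoq and Cidec differed most and Fabp4 least. Among all genes tested, 17.8% were called lower in late distal colon, and 14.6% had every late distal array below every late proximal array.

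The hormone gene Adipoq had a lowest, median and highest level of 5.13, 7.73 and 9.13 log2 units in late distal colon, against 11.06, 10.52, 10.05 and 11.60 log2 units in the 4 late proximal arrays. Its late distal arrays were widely spread, yet none reached a late proximal one. The log2 difference was -3.45 ± 0.65 (SE), with a limma adjusted p of 0.000166.

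The adipsin gene Cfd had 6.69, 8.54 and 9.81 log2 units as lowest, median and highest level in late distal colon, against 11.93, 11.39, 10.51 and 12.01 log2 units in late proximal colon. Late distal array 6 was the lowest of all 28 arrays for both secreted products, Cfd and Adipoq. The log2 difference of Cfd was -2.98 ± 0.57 (SE), with a limma adjusted p of 0.000218.

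The carrier gene Fabp4 had 9.94, 10.7 and 11.4 log2 units as lowest, median and highest level in late distal colon, against 12.68, 11.78, 11.64 and 12.72 log2 units in late proximal colon. Here the groups came closest to each other. The log2 difference was -1.47 ± 0.33 (SE), with a limma adjusted p of 0.000955. The remaining 2 Fabp4 probe sets gave -1.78 ± 0.36 and -1.25 ± 0.43 log2 units (SE), with limma adjusted p of 0.000646 and 0.0349 when all probe sets were tested.

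The droplet gene Cidec had 5.46, 6.51 and 7.60 log2 units as lowest, median and highest level in late distal colon, against 9.58, 9.98, 9.76 and 10.56 log2 units in late proximal colon. Both groups were tight for this gene compared with the gap between them. The log2 difference was -3.45 ± 0.45 (SE), with a limma adjusted p of 2.05e-06. All 4 genes were called in each of 19 alternative analyses of this comparison. Without the 6 arrays with pancreatic transcripts the log2 differences were -3.95 for Adipoq, -3.54 for Cfd, -1.80 for Fabp4 and -3.46 for Cidec. In tissue RNA, fewer fat cells and less RNA of a gene per fat cell cannot be told apart. For Fabp4 and Cidec, which other cells also make, a change in those cells cannot be told apart from either.

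**Figure D1:**
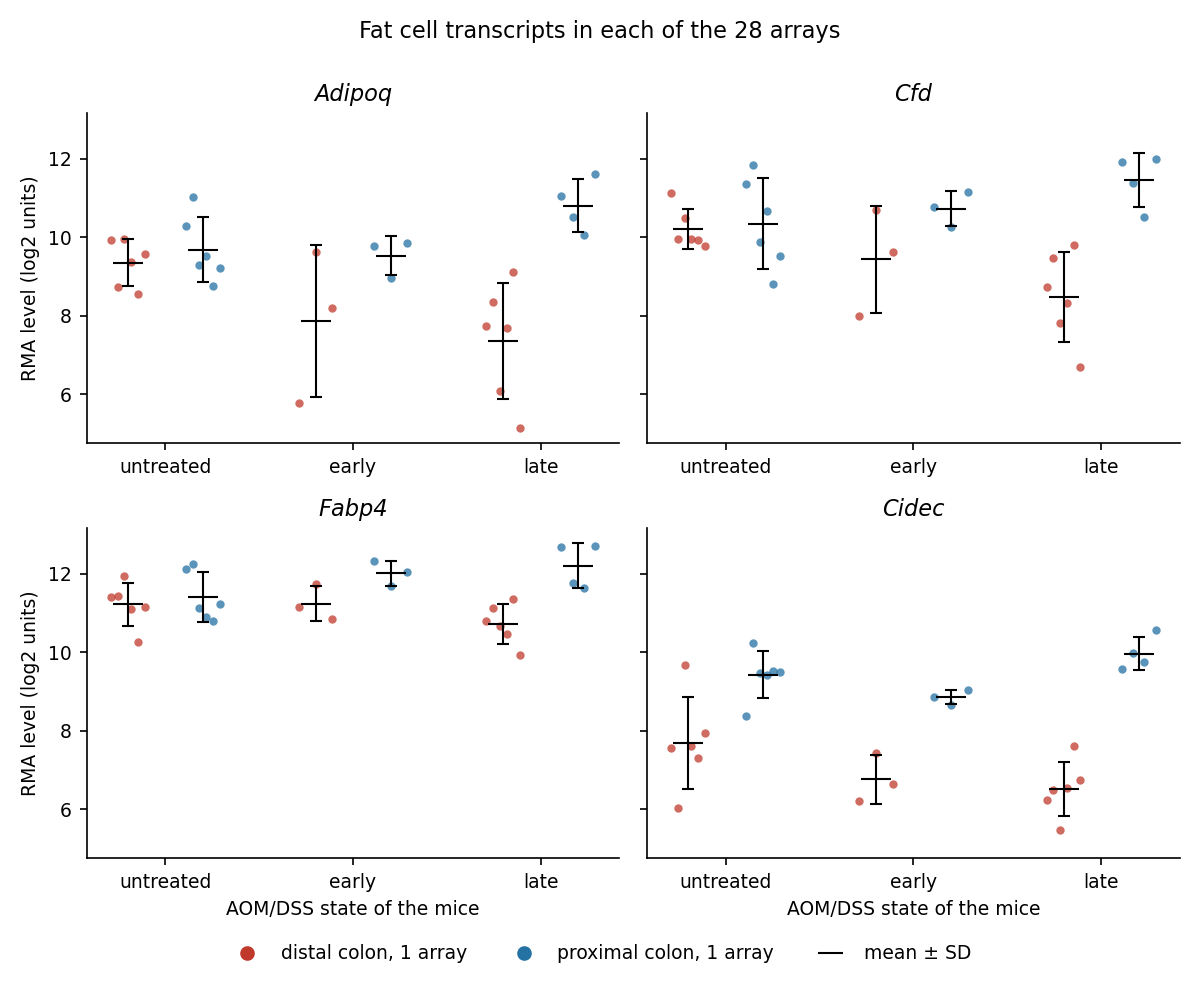
RMA levels (log2 units, vertical axis) of the 4 genes in every array, by treatment state (horizontal axis), with distal colon in red left of proximal colon in blue. Bars are means ± SD; in late mice every distal array lies below every proximal array for all 4 genes, and for Cidec the regions also stand mostly apart in untreated mice.

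Within the distal colon, late mice were next compared with untreated mice. The labels give neither age nor day of killing for the untreated mice, so time and treatment cannot be told apart here. Adipoq, Cfd and Cidec were lower in late distal colon, by 3.99, 3.32 and 2.26 times, and Fabp4 was not called. Of all genes, 22.6% were called lower in this comparison. The groups overlapped for all 4 genes, while 9.57% of all genes had every late distal array below every untreated distal array.

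Adipoq averaged 7.36 ± 1.48 log2 units in late distal and 9.36 ± 0.59 log2 units in untreated distal colon (SD, n = 6 each). The highest late distal array (9.13) lay within the untreated range of 8.56 to 9.95 log2 units. The difference was -1.998 ± 0.58 log2 units (SE), with a limma adjusted p of 0.00614.

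Cfd averaged 8.48 ± 1.14 log2 units in late distal and 10.2 ± 0.51 log2 units in untreated distal colon (SD, n = 6 each). Again 1 late distal array, at 9.81, reached above the lowest untreated array, at 9.79. The difference was -1.73 ± 0.51 log2 units (SE), with a limma adjusted p of 0.0072. With untreated arrays 4 to 6 as the only untreated arrays, the adjusted p was 0.0569. Without the 2 arrays that go against their labels the difference was -1.67 log2 units for Cfd and -1.88 for Adipoq (adjusted p 0.0122 and 0.0138). Without the arrays with pancreatic transcripts it was -2.10 for Cfd and -2.38 for Adipoq (adjusted p 0.00978 and 0.0109).

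Cidec averaged 6.51 ± 0.70 log2 units in late distal and 7.69 ± 1.17 log2 units in untreated distal colon (SD, n = 6 each). Untreated distal array 3, with its proximal Hoxd13 level, read 9.67 log2 units for Cidec, and the other 5 untreated distal arrays lay between 6.03 and 7.95. The difference was -1.18 ± 0.41 log2 units (SE), with a limma adjusted p of 0.0191, and it was -0.78 log2 units with an adjusted p of 0.0447 without untreated proximal array 1 and untreated distal array 3. Its call was lost in 5 of 24 alternative analyses: without untreated distal array 3 alone (-0.78 log2 units, adjusted p 0.0622), without late distal array 3 (0.0568), without the arrays with pancreatic transcripts (0.0562), with only these groups in the fit (0.0602) and with untreated arrays 1 to 3 alone (0.0832).

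Fabp4 averaged 10.7 ± 0.51 log2 units in late distal and 11.2 ± 0.55 log2 units in untreated distal colon (SD, n = 6 each). The difference was -0.49 ± 0.29 log2 units (SE), with a 95% interval of -1.10 to 0.11 and a limma adjusted p of 0.167. The Adipoq difference lay outside that interval, but its own 95% interval, -3.19 to -0.81 log2 units, overlapped it. Whether the 2 genes differed in their fall was not tested. With untreated arrays 1 to 3 as the only untreated arrays Fabp4 was called, at -0.87 log2 units (adjusted p 0.0377). The authors' deposited table gave fold changes of untreated over late distal colon of 3.99 for Adipoq, 3.32 for Cfd, 2.26 for Cidec and 1.41 for Fabp4.

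In the proximal colon of late mice, which the labels call unaffected, the 4 genes had higher means than in untreated mice, and none was called. The log2 differences of late over untreated proximal colon were 1.12 ± 0.65 for Adipoq, 1.11 ± 0.57 for Cfd, 0.80 ± 0.33 for Fabp4 and 0.54 ± 0.45 for Cidec (SE), with limma adjusted p between 0.443 and 0.875. At an unadjusted p under 0.05 only Fabp4 of the 4 and 1193 of all genes passed, and 0.0212% of genes were called. The late and untreated proximal arrays overlapped for every member. The lowest, median and highest untreated proximal levels were 8.75, 9.41 and 11.04 log2 units for Adipoq and 8.80, 10.3 and 11.8 log2 units for Cfd.

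The test of the difference between the 2 late responses put these parts together. The response of late mice was lower in distal than in proximal colon for all 4 genes, by -3.12 ± 0.87 log2 units for Adipoq, -2.84 ± 0.77 for Cfd, -1.29 ± 0.44 for Fabp4 and -1.72 ± 0.61 for Cidec (SE). The limma adjusted p values were 0.013, 0.0109, 0.04 and 0.0473, and 8.49% of all genes were called lower. For Adipoq and Cfd the call held in 33 of 34 alternative analyses, and for Fabp4 in 17 and Cidec in 11 of them. Leaving out 1 of the 22 arrays at a time ended the call of Fabp4 in 13 and of Cidec in 17 cases, with adjusted p up to 0.103 and 0.112, both without late proximal array 4. Without the 2 arrays that go against their labels Cidec had -1.12 log2 units and was not called (adjusted p 0.0931), while Adipoq, Cfd and Fabp4 were called at -3.12, -2.98 and -1.29 log2 units. Without the arrays with pancreatic transcripts Cidec had -1.54 log2 units and was not called (0.122), with Adipoq, Cfd and Fabp4 called at -3.62, -3.42 and -1.73. With array weights Fabp4 had -0.81 log2 units and was not called (0.119). With untreated arrays 1 to 3 as the only untreated arrays none of the 4 was called (adjusted p 0.0763 to 0.142), with differences between -2.78 (Adipoq) and -1.23 (Fabp4) log2 units.

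**Figure D2:**
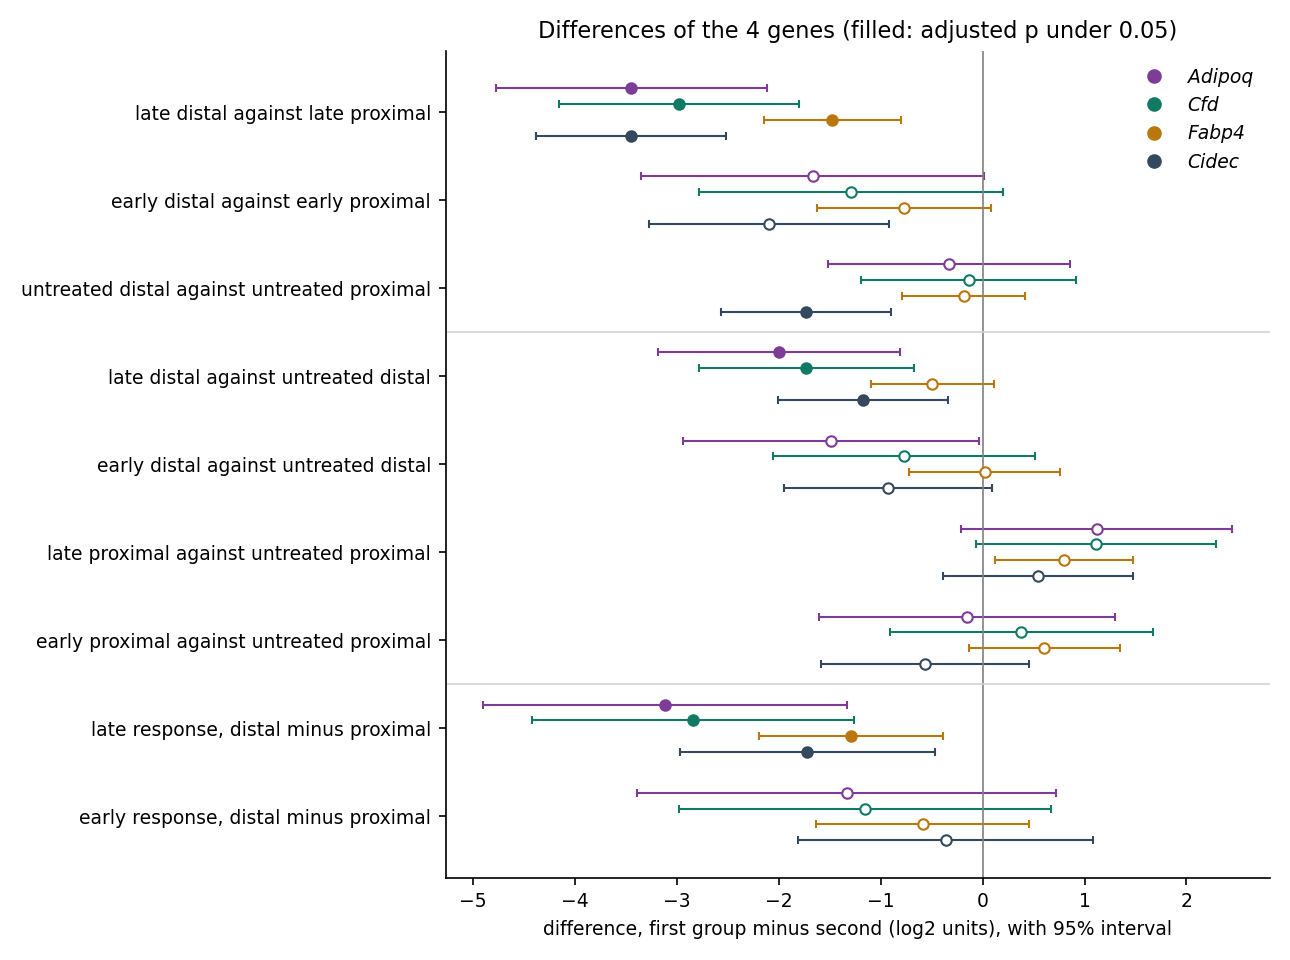
Log2 differences (horizontal axis, first group minus second) of the 4 genes in 9 comparisons (vertical axis), with the 95% interval of the limma fit as bars and filled points where the adjusted p was under 0.05. All 4 points are filled for late distal against late proximal colon and for the late response, and only Cidec is filled between the untreated regions.

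Before any treatment Cidec was the only member called between the regions. Untreated distal colon had a lowest, median and highest Cidec level of 6.03, 7.58 and 9.67 log2 units, against 8.38, 9.49 and 10.2 log2 units in untreated proximal colon. The difference was -1.73 ± 0.41 log2 units (SE, 3.33 times lower in distal colon), with a limma adjusted p of 0.00934, where 5.53% of all genes were called lower. The groups overlapped through untreated distal array 3, and the lowest level of untreated proximal colon was in array 1, so both extremes were in the arrays whose Hoxd13 levels go against their labels. Without both, the difference was -2.34 log2 units and the adjusted p 8.23e-06. Without the arrays with pancreatic transcripts it was -1.92 log2 units, with an adjusted p of 0.00628. With only the 12 untreated arrays in the fit the adjusted p was 0.0848, and with arrays 1 to 3 of each region alone, a set that holds both of those arrays, it was 0.558.

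Adipoq, Cfd and Fabp4 differed by -0.33 ± 0.58, -0.14 ± 0.51 and -0.18 ± 0.29 log2 units (SE) between untreated distal and untreated proximal colon, with limma adjusted p of 0.763, 0.898 and 0.740. The 95% interval for Adipoq ran from -1.52 to 0.86 log2 units, so a moderate difference either way was not detectable with these arrays. Whether Cidec differed more between regions than the other members was not tested.

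**Figure D3:**
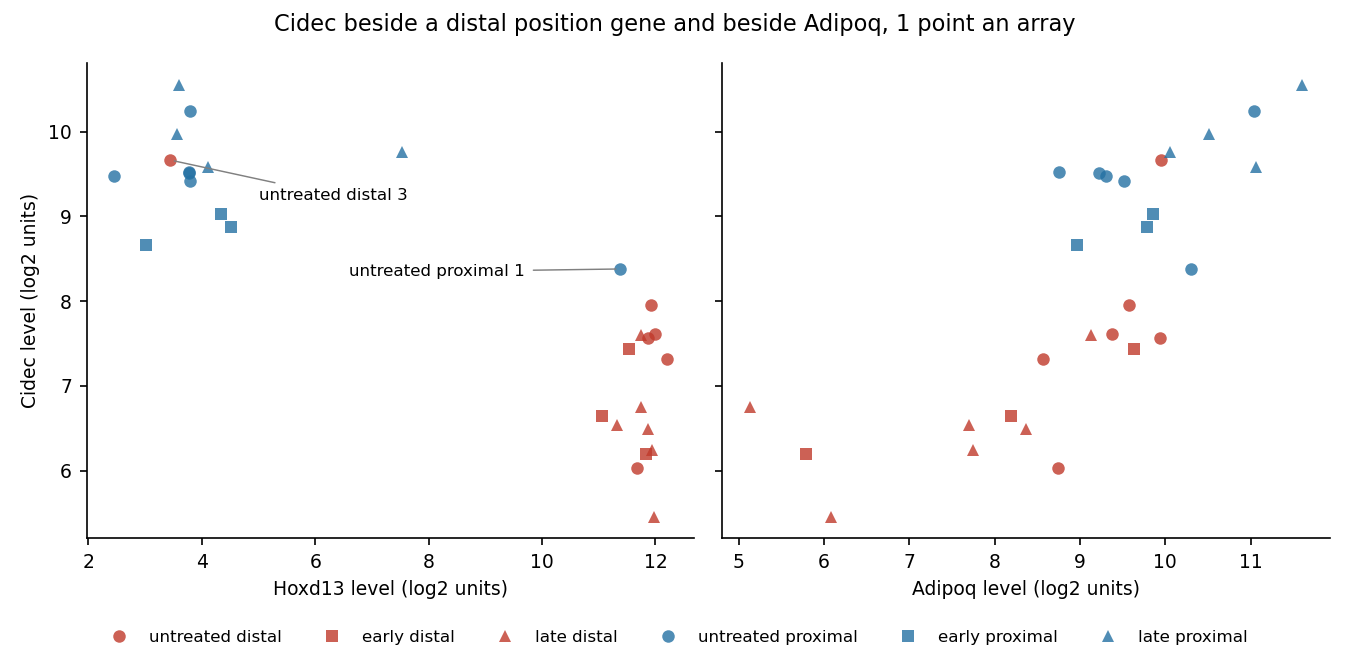
Cidec level (vertical axes, log2 units) against the level of the position gene Hoxd13 (left) and of Adipoq (right) in each of the 28 arrays, coloured by labelled region and shaped by treatment state. Cidec is high where Hoxd13 is low, including in untreated distal array 3 (Cidec 9.67, Hoxd13 3.44), while low Adipoq is seen in treated distal arrays. Untreated proximal array 1 has high Hoxd13 (11.4) with Cidec at 8.38, above Cidec in every distal array except untreated distal array 3.

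Early mice, after 2 DSS cycles, gave no call for any of the 4. Early distal arrays read 5.79, 9.63 and 8.19 log2 units for Adipoq, against 8.56, 9.48 and 9.95 log2 units as lowest, median and highest untreated distal level. Early distal array 1 lay far below the untreated range and array 2 inside it. The difference was -1.49 ± 0.71 log2 units (SE), with a limma adjusted p of 0.203, and 11.3% of all genes were called in either direction. The other differences were -0.77 ± 0.63 for Cfd, 0.02 ± 0.36 for Fabp4 and -0.93 ± 0.50 for Cidec (SE), with limma adjusted p of 0.507, 0.983 and 0.264.

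Between the early regions Cidec read 6.20, 7.43 and 6.64 log2 units in early distal colon, against 8.87, 8.67 and 9.03 log2 units in early proximal colon. The groups did not overlap, as was the case for 10.9% of all genes in this direction. The difference was -2.10 ± 0.57 log2 units (SE), with a limma adjusted p of 0.0539, where 1.9% of genes were called. It was called with array weights (adjusted p 0.00192) and with only these 2 groups in the fit (0.0118). Adipoq, Cfd and Fabp4 differed by -1.67 ± 0.82, -1.29 ± 0.72 and -0.77 ± 0.42 log2 units (SE), with limma adjusted p between 0.397 and 0.503.

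No member was called between late and early mice in either region, or between early and untreated proximal colon. In the distal colon the late minus early differences ran from -0.96 (Cfd) to -0.24 (Cidec) log2 units, and 24.1% of all genes were called. In the proximal colon they ran from 0.19 (Fabp4) to 1.27 (Adipoq) log2 units, with 0.666% of genes called. Every late proximal array was above every early proximal array for Adipoq and Cidec, as for 7.91% of all genes. Early minus untreated proximal differences ran from -0.57 (Cidec) to 0.61 (Fabp4) log2 units, with 7.59% of genes called. The early response did not differ between the regions for any member (differences of -1.34 to -0.36 log2 units, limma adjusted p 0.999), and 0.0% of all genes were called, with 501 genes and none of the members at an unadjusted p under 0.05. The values of the 6 early arrays, and of no others, were deposited with more than 6 significant digits. How those values were made is not given in the sources used here, so any effect of it and an effect of early treatment cannot be told apart.

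The order of the group means differed among the genes. For Adipoq the means ran late proximal (10.8), untreated proximal (9.69), early proximal (9.54), untreated distal (9.36), early distal (7.87) and late distal (7.36 log2 units). For Cidec the same order of groups held, with means of 9.97, 9.42, 8.86, 7.69, 6.76 and 6.51 log2 units. For Cfd and Fabp4 the early proximal mean (10.7 and 12.01 log2 units) was above the untreated proximal mean (10.3 and 11.4). Each pair of neighbours in these orders overlapped in its arrays, for all 4 genes.

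Array by array, Adipoq, Cfd and Fabp4 moved together and Cidec less so. After each group's mean was taken off, Adipoq and Cfd correlated with r = 0.92 over the 28 arrays, Cfd and Fabp4 with 0.75 and Adipoq and Fabp4 with 0.72, while Cidec had 0.47 with Adipoq, 0.29 with Cfd and 0.28 with Fabp4. These arrays share their normalization, and the values are a description. Within the 3 groups of 6 arrays, 18 relations were computed. In late distal colon Adipoq and Cfd had a Pearson r of 0.974 (exact permutation p = 0.00139, adjusted 0.0125) and a Spearman rho of 1 (exact permutation p = 0.00278, adjusted 0.025), and r was 0.937 without the 2 arrays farthest from the median. In untreated proximal colon the same pair had r = 0.957 (exact permutation p = 0.00139, adjusted 0.0125) and rho = 1 (exact permutation p = 0.00278, adjusted 0.025), with r = 0.967 without the 2 farthest arrays. Cfd and Fabp4 in late distal colon had r = 0.960 (exact permutation p = 0.00556, adjusted 0.0333) and rho = 0.943 (exact permutation p = 0.0167, adjusted 0.075), with r = 0.816 without the 2 farthest. The other 15 relations, among them all 9 that involve Cidec, had adjusted p above 0.05 by r. The smallest of these was 0.0563, for Adipoq and Fabp4 in untreated proximal colon (r = 0.931, rho = 0.771). In untreated distal colon r was 0.65 for Adipoq and Cfd, 0.71 for Adipoq and Fabp4 and 0.46 for Cfd and Fabp4. Their adjusted exact permutation p values were 0.283, 0.2625 and 0.554. Without the 2 farthest arrays r was 0.83, 0.81 and -0.11, so the joint movement was not shown for every pair in that group.

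The genes whose levels were most like the mean of the 4 members over the 28 arrays were Car3 (r = 0.949), Cyp2e1 (0.907), Plin4 (0.904), Lep (0.899), Glb1l2 (0.899), Abcd2 (0.895), Retn (0.892), Trarg1 (0.890, TUSC5 in the authors' table), Slc1a3 (0.880) and Lpl (0.879). The median over all genes was -0.02. By deviations from the group means, 9 of these 10 were again among the 10 most alike, led by Car3 (r = 0.937) and Retn (0.873), with Adig (0.792) in place of Abcd2. Car3 codes for a carbonic anhydrase abundant in fat and muscle, Lep for the hormone leptin, Retn for the mouse adipokine resistin, Plin4 for a droplet coat protein and Lpl for the lipase that frees fatty acids from blood lipoproteins. The likeness carries no p, and since late distal colon is low and late proximal colon high for the members, part of it is the pattern of the groups.

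**Figure D4:**
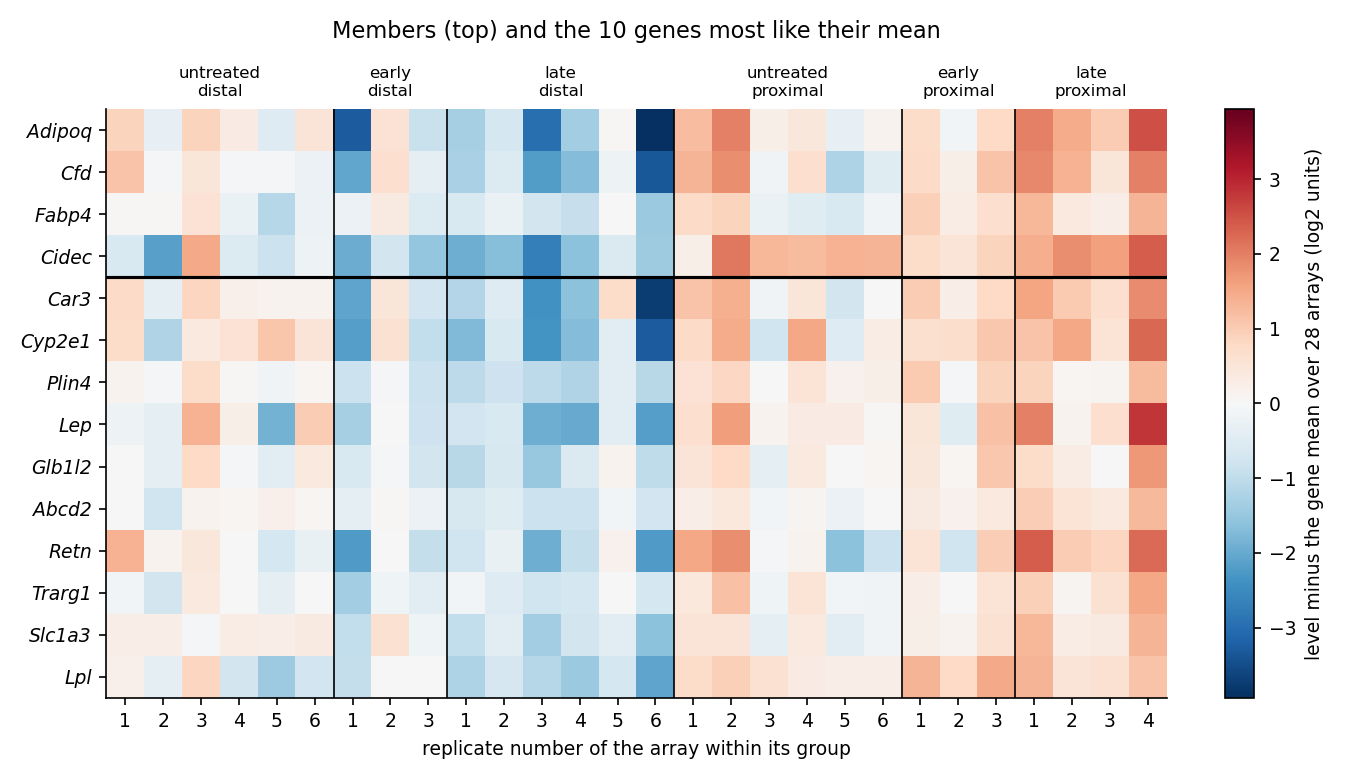
Level minus the gene's mean over the 28 arrays (colour, log2 units) of the 4 members (top rows) and the 10 genes most like their mean (lower rows), with arrays in columns by group. Late distal arrays 3 and 6 and early distal array 1 are the lowest columns for Adipoq and Cfd, and late proximal arrays 1 and 4 the highest for Adipoq.

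Of all genes tested, 17.8% were called lower and 19.1% higher in late distal against late proximal colon, and 22.6% lower and 26.0% higher in late against untreated distal colon, and each list count for these comparisons stands beside those shares. In the list counts, fell and rose mean called lower and called higher, also where 2 regions are compared. Among other secreted fat products, 11 genes with the adiponectin receptors were measured. In late distal against late proximal colon 4 fell and 2 rose, with a median of -0.41 log2 units beside 0.03 over all genes. Leptin transcript (Lep) differed by -2.70 ± 0.55 and resistin transcript (Retn) by -2.61 ± 0.60 log2 units (SE), with limma adjusted p of 0.000373 and 0.00121. Retn had 5.93 to 8.32 log2 units in late distal colon, against 10.53, 9.15, 9.01 and 10.37 log2 units in late proximal colon. Of the adiponectin receptors, Adipor2 differed by -0.41 ± 0.12 and Adipor1 by 0.16 ± 0.15 log2 units (SE), with limma adjusted p of 0.00634 and 0.424. Cdh13, which binds adiponectin on vessels, was higher in late distal colon by 1.86 ± 0.23 log2 units (SE), limma adjusted p 7.81e-07. Against untreated distal colon 2 of the 11 fell and 2 rose in late distal colon, with Lep at -1.33 ± 0.49 (limma adjusted p 0.027) and Retn at -1.16 ± 0.53 log2 units (0.0742).

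Of 10 transcription factors of fat cell differentiation, 5 fell and 2 rose in late distal against late proximal colon, with a median of -0.37 log2 units. Pparg, the main regulator of fat cell identity and also active in colon epithelium, differed by -1.83 ± 0.30 log2 units (SE, limma adjusted p 4.14e-05), and Cebpa by -0.44 ± 0.12 (0.00561). Pparg averaged 9.47 ± 0.31 log2 units in late distal (SD, n = 6) and 11.3 ± 0.19 log2 units in late proximal colon (SD, n = 4). It was already lower in untreated distal than in untreated proximal colon, by -1.22 ± 0.27 log2 units (SE, limma adjusted p 0.00718), and the arrays that go against their labels read 11.3 log2 units (untreated distal 3) and 9.94 log2 units (untreated proximal 1). In late against untreated distal colon it differed by -0.40 ± 0.27 log2 units (limma adjusted p 0.234), while Klf15, a factor of fat cell maturation, fell by 0.97 ± 0.22 (0.000786) and 4 of the 10 rose, led by Srebf1, a factor of lipid synthesis (1.02 ± 0.20, 0.000194).

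Droplet and lipolysis genes, relatives of Cidec and PLIN1 in role, showed a part of the pattern. Of 15 measured, 7 fell and none rose in late distal against late proximal colon, with a median of -0.45 log2 units. The lipases Mgll and Lipe differed by -1.79 ± 0.30 and -1.24 ± 0.20 log2 units (SE) and the droplet protein Plin4 by -1.51 ± 0.24 (limma adjusted p 5.06e-05, 3.73e-05 and 2.89e-05). The Cidec relative Cideb, known from liver and intestine, differed by -1.11 ± 0.22 (0.000384), and Cidea, known from brown fat, by 0.03 ± 0.26 (0.939). Mgll, Lipe and 3 others of the 15 were also lower in untreated distal than in untreated proximal colon, with none higher. In late against untreated distal colon 5 fell and 2 rose, with Plin4 at -1.07 ± 0.22 (0.000268) and G0s2, an inhibitor of the main fat lipase, at 1.13 ± 0.23 (0.000274).

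For fatty acid uptake and triglyceride synthesis, 10 of 15 fell and none rose in late distal against late proximal colon, with a median of -0.49 log2 units. Lpl differed by -2.10 ± 0.33 and the fatty acid receptor Cd36 by -1.50 ± 0.32 log2 units (SE, limma adjusted p 1.89e-05 and 0.000591). Against untreated distal colon 3 fell and 2 rose in late distal colon, with Pck1, which makes the glycerol backbone, at -1.96 ± 0.27 (2.69e-06). Of 14 genes of glucose uptake and lipogenesis, 6 fell and 1 rose in late distal against late proximal colon, with a median of -0.40 log2 units. They include Car3 (-2.73 ± 0.58, limma adjusted p 0.000592), the lipogenic Thrsp (-2.50 ± 0.50, 0.000362) and the insulin-dependent glucose transporter Slc2a4 (-1.44 ± 0.20, 5.12e-06).

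The relatives of Fabp4 were mostly genes of absorbing epithelium. Of 5 measured, 4 fell in late distal against late proximal colon: Fabp1, the liver and gut form (-3.32 ± 0.69), Fabp2, the intestinal form (-2.96 ± 0.41), Fabp6, the bile acid carrier (-2.81 ± 0.65), and Fabp3, the muscle form (-1.05 ± 0.22 log2 units, SE), with limma adjusted p between 4.78e-06 and 0.00133. Fabp5, the skin form that fat cells and macrophages also make, differed by 0.16 ± 0.28 (0.685) there and rose against untreated distal colon by 1.24 ± 0.25 log2 units (SE, limma adjusted p 0.000226). In untreated distal against untreated proximal colon the median of the 5 was already -1.29 log2 units. There 1 of the 5 was called lower, beside 5.53% of all genes. In late against untreated distal colon 2 fell and 1 rose. The late response was called lower for 1 of the 5, beside 8.49% of all genes.

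Most measured partners of adipsin in the alternative complement pathway were higher in late than in untreated distal colon, where Cfd was lower. Of 8 measured, 7 rose, beside 26.0% of all genes, and 1 fell, with a median of 1.21 log2 units beside 0.00 over all genes. C3, the central component, rose by 1.37 ± 0.24 and its partner Cfb, the substrate of adipsin, by 0.51 ± 0.15 log2 units (SE, limma adjusted p 5.9e-05 and 0.00795), and properdin (Cfp) by 1.26 ± 0.28 (0.000573). In late distal against late proximal colon 3 of the 8 rose, 5 were not called and none fell.

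Brown fat genes followed no single direction. Of 6 measured, 2 fell and 2 rose in late distal against late proximal colon. Cox7a1, a muscle and brown fat respiratory subunit, differed by -1.46 ± 0.29 and Ppara, a factor of fatty acid oxidation, by -3.05 ± 0.38 log2 units (SE, limma adjusted p 0.000269 and 1.01e-06), while Dio2, a thyroid hormone deiodinase, differed by 3.44 ± 0.48 (5.26e-06).

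Transcripts of the other tissues of the outer wall moved in the same comparisons. Of 12 smooth muscle genes 11 fell in late against untreated distal colon, with a median of -0.59 log2 units, and their mean level was 10.8 to 11.5 log2 units in late distal and 11.8 to 11.96 log2 units in untreated distal arrays. Of 11 enteric neuron and glia genes 9 fell, with a mean level of 6.38 to 6.90 log2 units in late distal and 7.32 to 7.66 log2 units in untreated distal arrays. Against late proximal colon 7 of the 12 and 8 of the 11 fell. Neither list had a call that fell in untreated distal against untreated proximal colon. The 6 measured genes of the mesothelium, the outer lining beside the fat, had mean levels of 5.73 to 6.48 log2 units in late distal, 6.12 to 7.09 in late proximal, 5.37 to 6.90 in untreated distal and 5.84 to 6.72 log2 units in untreated proximal arrays. Of them Msln rose in late against untreated distal colon (2.00 ± 0.25 log2 units, SE, limma adjusted p 6.3e-07) and none fell. In late distal against late proximal colon 1 rose and 2 fell. The group means of this list, 5.43 to 6.48 log2 units, lay below the lowest array median of 6.61. At such low levels a lack of falls says little about that lining.

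Further markers of cells that could carry or accompany these transcripts were measured. Blood endothelium, which makes Fabp4 in capillaries, had 6 of 12 genes higher (26.0% of all genes were) and none lower in late against untreated distal colon, and 2 lower against late proximal colon. Of 10 genes of tissue macrophages, which also make Fabp4, 4 rose and 3 fell in late against untreated distal colon, with Cd163 at -3.01 ± 0.40 and Gpnmb at 2.00 ± 0.22 log2 units (SE, limma adjusted p 1.68e-06 and 9.74e-08). Among 11 connective tissue genes 2 rose and 3 fell, and of 6 lymphatic genes 2 rose and 3 fell. Of 10 B cell genes 5 rose, and of 7 colon epithelium genes 4 fell and 1 rose. The 5 measured inflammatory genes all rose, with Il1b at 6.04 ± 0.38 and Tnf, which is known to repress fat cell genes in culture, at 2.50 ± 0.28 log2 units (SE, limma adjusted p 6.38e-12 and 1e-07). The 8 measured genes of the exocrine pancreas had mean levels of 8.15 to 12.8 log2 units in late distal arrays, against 6.26 to 7.11 log2 units in late proximal and 6.86 to 11.7 log2 units in untreated distal arrays. In late distal colon 3 of the 8 rose against late proximal colon (median difference 2.84 log2 units) and 2 of the 8 against untreated distal colon (median 1.67), with none lower. The 3 late distal arrays kept when the arrays above 9 log2 units were left out still lay at 8.15 to 8.51 log2 units. The part of any of these tissues, or of fat attached to the outer wall, in the members' levels was not tested.

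**Figure D5:**
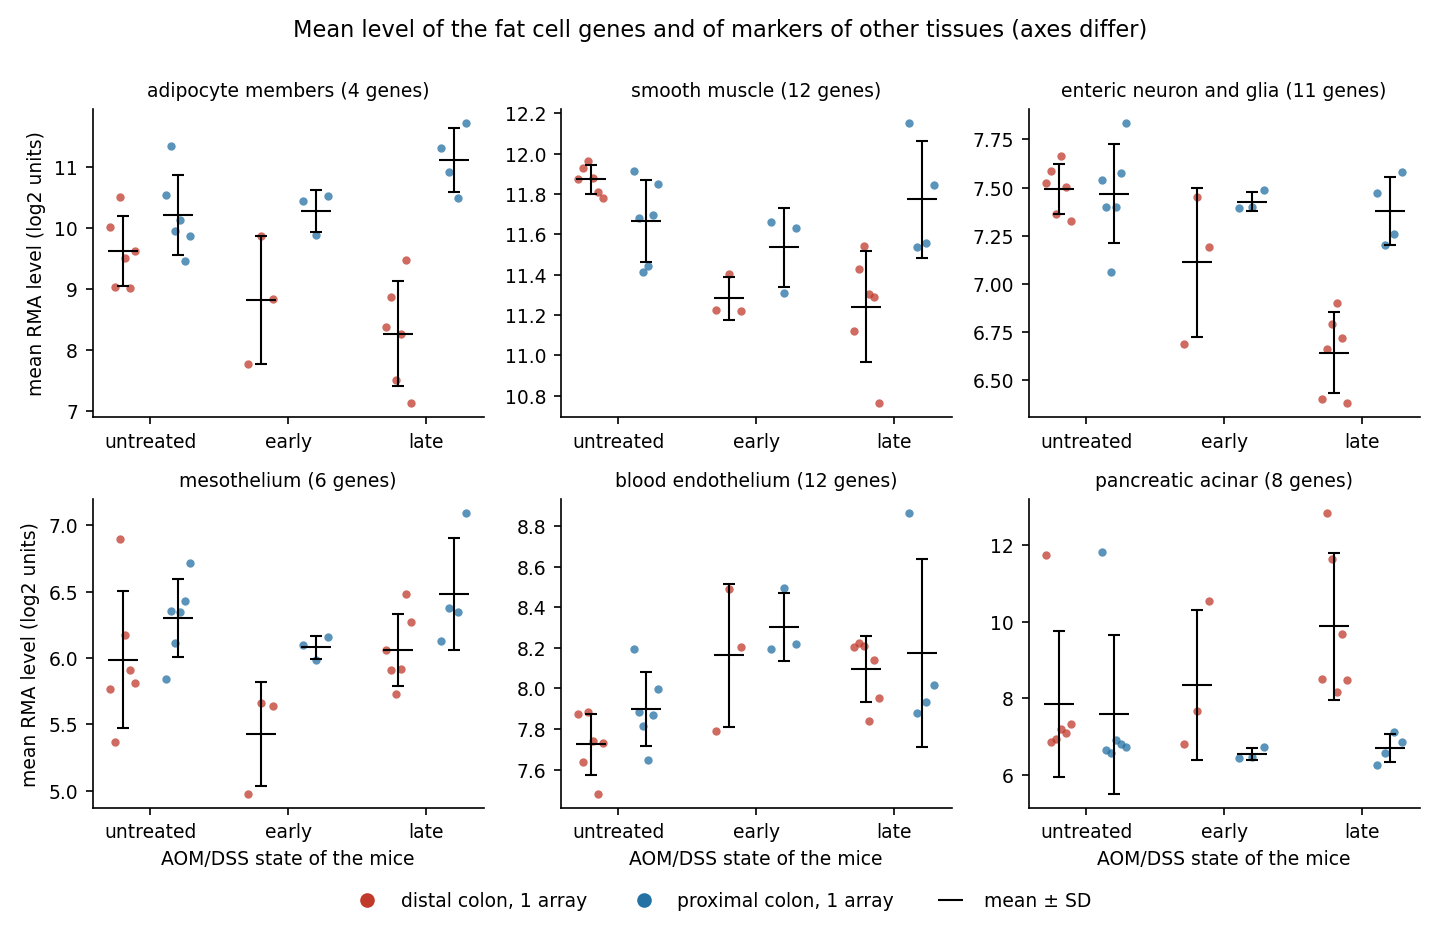
Mean RMA level (log2 units, vertical axes, which differ) of the 4 members and of 5 marker lists in each array, by treatment state (horizontal axis), distal colon left of proximal colon, with means ± SD. Smooth muscle and enteric neuron genes are also low in late distal arrays, and the pancreatic genes are higher in every late distal array than in any late proximal array, and high in single arrays of 3 other groups.

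In the proximal colon of late mice the same lists were nearly without calls. Of all genes, 0.0212% were called in late against untreated proximal colon. With so few calls, a list without any is the usual outcome and says little about its tissue. Of the fat lists none had a member called against untreated proximal colon, in either direction, and the same was true of the smooth muscle, enteric neuron, mesothelium and endothelium lists by limma. The median difference was 0.95 log2 units over the 4 members, 0.11 over droplet and lipolysis genes, 0.30 over fatty acid uptake genes and 0.41 over connective tissue genes, beside -0.01 over all genes.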

How the data were processed

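RNA of proximal and distal colon was extracted in Trizol, amplified with NuGEN Ovation kits and labelled with biotin, per the labels' protocols. The deposited values are log2 expression, made by the authors with RMA in Partek 6.5, per the submitters' processing notes, for 45101 probe sets in 28 arrays. The deposited table of the authors covers 26933 probe sets and gives group means (log2), a p-value and step-up p-value, and a signed fold change of untreated over treated, whose unit was recorded as a score because it has no values between -1 and 1. Gene names came from that table: 19920 probe sets matched a mouse symbol, 1623 a synonym, and 2290 kept their name. Probe sets with several genes (380) or no name (2720) were left out, and each of 14123 genes was represented by its probe set of highest mean.

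All 28 arrays entered 1 fit of 6 group means by limma 3.58.1 in R 4.3.3 (22 residual and 3.78 prior degrees of freedom), and p was adjusted by Benjamini-Hochberg within each of 11 comparisons. SE is limma's moderated standard error and intervals are 95%. No pseudocount was added, and no filter on low values was applied beyond the limit to probe sets in the authors' table. The median of the mean levels was 7.94 log2 units inside that table and 4.11 outside it. Shares of all genes are therefore shares of a set with mostly higher levels. On simulated data, tested before use, the fit called 87% of genes changed by 1 log2 unit and 97% of those changed by 2. That simulation covered only late against untreated distal colon, with 200 changed genes drawn at random and independent noise. Its shares do not apply to the members, which can vary more, or to the groups of 3 or 4 arrays. The number of arrays sets the precision. Genes named in the text are the members, list members called with the largest differences (up to 4) or of related families, and the 10 most alike. The members and the lists were chosen with earlier results of these data known, so list counts support nothing beyond themselves. Replicate numbers may mark animals, but p-values measure only the spread between arrays. Fabp4 had 3 probe sets and the other members 1 each. Alternatives changed the probe set rule, a filter at 6 log2 units, the genes tested, the centring, the variance model, the arrays in the fit and the replicate block. Leaving out the arrays with pancreatic transcripts was chosen after seeing the data. Tables and figures used Python 3.11.15, pandas 2.3.3, numpy 2.4.6, scipy 1.17.1 and matplotlib 3.10.9.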

Additional observations from a re-analysis of the deposited data

Results flagged for a closer look

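The 4 members were flagged because their late responses, late against untreated mice, differed between distal and proximal colon in a test of that difference. Such a call is not particular to them, since 8.49% of all genes were called lower in that test. Of 34 alternative analyses the call held in 33 for Adipoq and for Cfd, in 17 for Fabp4 and in 11 for Cidec. The distal minus proximal differences were -3.12 log2 units for Adipoq, -2.84 for Cfd, -1.29 for Fabp4 and -1.72 for Cidec. A check for outlying values covered 16 pairs of member and group, those with 4 to 6 arrays, and picked no array. By chance it picks about 1 pair in 20. It did not pick Cidec in untreated distal array 3, at 9.67 log2 units, although the others of that group lay between 6.03 and 7.95. The early groups, of 3 arrays each, were not examined.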

How the results depend on the processing

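In late distal against late proximal colon all 4 members were called under each of the 19 alternatives, and all kept a negative difference. In late against untreated distal colon 3 were called, and 2 to 3 under the alternatives, leave-one-out included, with every difference of the 4 members negative. In the late response the 4 calls became 2 with all probe sets tested (Fabp4 and Cidec lost) and 0 with untreated arrays 1 to 3 alone. They became 3 under 6 further settings: Cidec lost its call with centred arrays (adjusted p 0.0504), with only the groups compared (0.0615), without the 2 arrays that go against their labels (0.0931) and without the arrays with pancreatic transcripts (0.122), and Fabp4 with array weights (0.119) and with untreated arrays 4 to 6 alone (0.051). As each array was left out the count ranged from 2 to 4, and the calls lost were those of Fabp4 and Cidec. Between the untreated regions 1 member was called, but 0 with only the groups compared and 0 with untreated arrays 1 to 3 alone. In early distal against early proximal colon, where none was called, 1 was with array weights and 1 with only the groups compared, and in late against early proximal colon 1 was with array weights. The cause was not tested.

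Differences that turned sign were not called under the settings that turned them. For Fabp4 in early against untreated distal colon they were -0.035 with centred arrays, -0.046 with array weights, -0.22 with the replicate block and -0.36 with untreated arrays 1 to 3 alone, and -0.23 to 0.22 as single arrays were left out. For Fabp4 in late against early proximal colon the value was -0.13 with array weights. Without the 2 arrays that go against their labels, Cfd between the untreated regions was 0.0057 and the early response of Cidec 0.24. With untreated arrays 1 to 3 alone Cfd in early against untreated proximal colon was -0.30. With untreated arrays 4 to 6 alone Adipoq there was 0.37, and between the untreated regions Adipoq was 0.0080 and Cfd 0.22. Leaving out single arrays gave -0.34 to 0.13 for Adipoq in early against untreated proximal colon, -0.45 to 0.16 for Cfd and -0.33 to 0.0075 for Fabp4 between the untreated regions, -0.70 to 0.033 for the early response of Cidec, and -1.55 to 0.37 for Adipoq and -0.52 to 0.092 for Cidec in late against early distal colon (log2 units).

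Over all genes the number called, with its range over the alternatives in brackets, was 1592 (363 to 5054) for early and 6852 (5861 to 14180) for late against untreated distal colon, 3398 (1673 to 6391) for late against early distal colon, 1072 (149 to 3945) for early and 3 (2 to 871) for late against untreated proximal colon, 94 (17 to 2644) for late against early proximal colon, 1384 (0 to 5101), 268 (17 to 1596) and 5208 (4213 to 10075) for distal against proximal colon in untreated, early and late mice, and 0 (0 to 375) and 2739 (1872 to 5187) for the early and late responses. The upper ends of 14180, 6391 and 10075 count probe sets rather than genes. They come from testing every probe set except the control probe sets of the array. The other upper ends come from array weights.

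Samples of the same number did not deviate together throughout: distal and proximal arrays of a number correlated with -0.01 to 0.58 in untreated, -0.02 to 0.69 in early and -0.23 to 0.08 in late mice, so the numbers were not used to pair. With the replicate block 3 members were called in late against untreated distal colon, 1 between the untreated regions and 4 in late distal against late proximal colon and in the late response, and no member's call changed. The 3 to 6 arrays of a group limit what could be seen: without a call, differences of over 1 log2 unit in Adipoq or Cfd were within the intervals.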
